A study of Mus musculus with 32 samples.

Results

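Forskolin (FSK) was compared with DHPG across all mature miRNAs of cultured mouse hippocampal neurons. The members were every mature miRNA of the count table, with 6 FSK libraries set against 6 DHPG libraries. The table lists 1963 mature miRNAs, of which 1382 had a count in at least 1 of these 12 libraries and 556 passed a filter on low counts and were tested. The neurons came from hippocampi of newborn (P0) mice and were used at day 16 in vitro. They received 50 µM FSK, 30 µM DHPG or the vehicle DMSO for 30 minutes. The miRNA assay also holds 4 DMSO libraries, which share the fit and are given as the background level. The whole series has 32 libraries, since total RNA was profiled with the same groups. The labels give no strain, sex or genotype, and no label says if replicates were cultured separately or came from different animals, so p-values measure only the spread between these libraries, which may be technical.

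FSK activates adenylyl cyclase and so raises cAMP, which acts through protein kinase A and the transcription factor CREB. DHPG stimulates group I metabotropic glutamate receptors, which couple to phospholipase C and calcium release and are known for driving local protein synthesis and long-term depression in the hippocampus. A miRNA is cut from a hairpin in a longer primary transcript by Drosha and Dicer. An arm of the hairpin is then loaded into an Argonaute protein and pairs with target mRNAs mainly through its seed, bases 2 to 8. Mature miRNAs are long-lived as a class, and the amount in a cell reflects transcription, processing and decay together.

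The sequences below, from RefSeq on GRCm38.p6, belong to the miRNAs on which the results turn, with the seed in capitals. Members of the miR-34/449 group come first because all 4 that were tested and have a sequence in the RefSeq table carry 1 seed, and all of them were higher with FSK.
miR-34a-5p: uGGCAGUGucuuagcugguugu
miR-34b-5p: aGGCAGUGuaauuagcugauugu
miR-449a-5p: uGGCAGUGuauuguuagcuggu
miR-449c-5p: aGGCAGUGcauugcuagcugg
The miR-15/16/497 family shares another seed, and these 3 of its members were higher with FSK.
miR-497a-5p: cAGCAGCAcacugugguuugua
miR-195a-5p: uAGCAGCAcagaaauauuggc
miR-15a-5p: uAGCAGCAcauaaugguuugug
The miR-10 pair holds the miRNA with the largest fold change.
miR-10a-5p: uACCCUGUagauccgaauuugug
miR-10b-5p: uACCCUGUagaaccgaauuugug
Among the miRNAs that were lower with FSK, 5 whose FSK libraries all lay below the DHPG libraries are shown, followed by miR-1249-3p, which overlapped but had the smallest p without FSK 4 and FSK 5. No seed is shared within this group.
miR-770-5p: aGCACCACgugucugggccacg
miR-491-5p: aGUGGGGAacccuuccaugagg
miR-666-5p: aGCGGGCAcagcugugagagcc
miR-672-5p: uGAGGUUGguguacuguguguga
miR-370-3p: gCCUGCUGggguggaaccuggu
miR-1249-3p: aCGCCCUUcccccccuucuuca
The CREB-regulated pair miR-132-3p and miR-212-3p shares a seed and is shown because its levels did not pass the test.
miR-132-3p: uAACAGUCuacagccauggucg
miR-212-3p: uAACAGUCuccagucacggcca

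FSK 4 and FSK 5 stood apart from the other libraries before any group was compared. The 12 libraries held 1748819 to 6756996 counts, and FSK 4 (3394923) and FSK 5 (4114784) lay inside that range. On the principal component with the largest share of variance (51.0%), FSK 4 and FSK 5 scored 17.6 and 17.0. The other FSK libraries scored -3.27 to 3.56 and the DHPG libraries -11.5 to 0.793. DMSO 1 scored -8.28, and DMSO 2 to 4 scored 4.01 to 7.72. The total RNA libraries of the same numbers fall into 2 sets by their mitochondrial rRNA, more than 5% in DMSO 2 to 4, DHPG 6 and FSK 4 to 6 (the deep set) and less in the others (the shallow set). These names are not from the labels and do not describe the depth of the miRNA libraries. The component above followed these sets within each agent. Libraries of the deep set scored 0.793 to 17.6, and those of the shallow set -11.5 to -0.859. FSK 3 of the shallow set held 6756996 miRNA counts, and FSK 6 of the deep set held 2034465. FSK 4 and FSK 5 have 24.2 and 27.7%, the highest shares of the 16. Whether a number marks the same RNA in both assays is not given in the labels. The deep set holds 3 FSK libraries and 1 DHPG library, so agent and library set are partly confounded, and fold changes are therefore also reported with FSK 4 and FSK 5 left out. Neuron-enriched miRNAs, which check the label, were present in every library: miR-9-5p lay at 47900 to 70510 CPM (counts per 1000000, with TMM-adjusted library sizes), miR-128-3p at 27960 to 66180 and miR-124-3p at 1764 to 3398 in the 12 libraries.

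With all 12 libraries, 83 of 556 miRNAs passed the edgeR quasi-likelihood test at an adjusted p under 0.05, which is 14.9%. Of these, 44 (7.91%) were higher and 39 (7.01%) were lower with FSK than with DHPG. The higher miRNAs had a median log2 fold change of 1.05 (0.48 to 5.25), and the lower ones a median of -0.61 (-1.11 to -0.31). Rose and fell are used below for higher and lower with FSK than with DHPG, not for a change from DMSO. Over all tested miRNAs the median was 0.04, with a median standard error (SE) of 0.21. The smallest adjusted p was 0.0364 and was shared by 49 miRNAs, so the calls lay close to the threshold. At an unadjusted p under 0.05 there were 191 miRNAs, 100 higher and 91 lower.

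Without FSK 4 and FSK 5 no miRNA passed (0% of 538 tested), the smallest edgeR adjusted p was 0.196, and 96 miRNAs (17.8%) had an unadjusted p under 0.05. All 81 of the called miRNAs that could still be tested kept their sign. The remaining libraries are among those that gave the calls, so this is not an independent check. The higher miRNAs changed most in size: their median log2 fold change went from 1.05 to 0.51, and 21 of 42 had an unadjusted p under 0.05. The lower miRNAs moved less, from a median of -0.61 to -0.53, with 36 of 39 at an unadjusted p under 0.05. FSK 4 and FSK 5 were the highest pair of the 12 libraries for 39 of the 44 higher miRNAs, against 128 of all 556 (23.0%). They were the lowest pair for 23 of the 39 lower miRNAs, against 96 of all (17.3%). The plot of both fold changes shows this asymmetry, with the higher miRNAs spread far to the right of the line of equal values. The loss of all calls was not particular to these libraries. No miRNA passed either when any of DHPG 2, DHPG 3, DHPG 4, DHPG 5, FSK 4 or FSK 5 was left out alone.

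**Figure D1:**
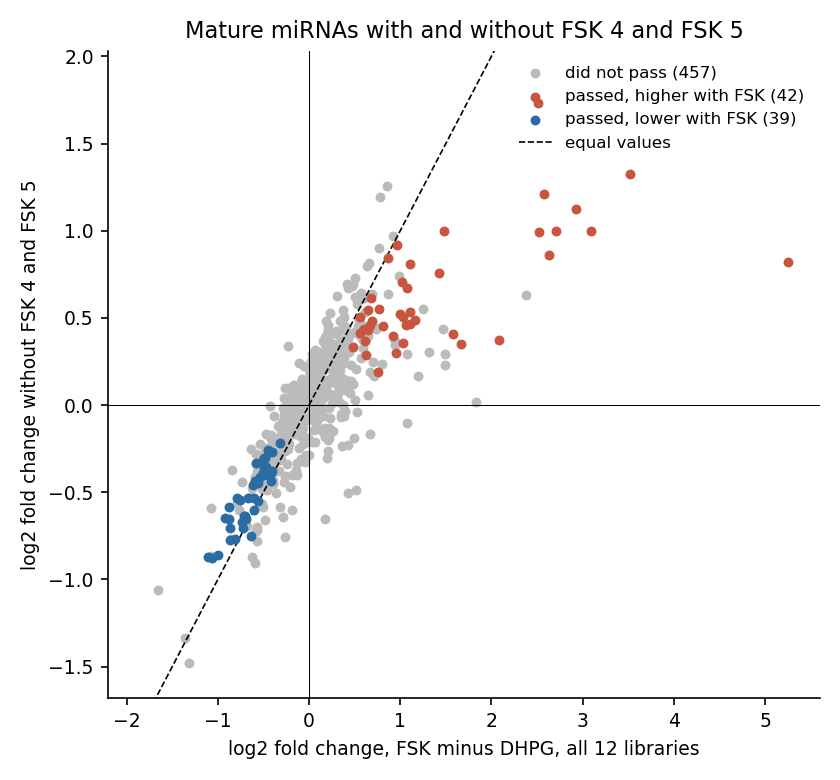
Log2 fold change (FSK minus DHPG) of 538 mature miRNAs with all 12 libraries (x axis) against that without FSK 4 and FSK 5 (y axis), 1 point per miRNA, coloured by the edgeR call from all 12 libraries. The 42 higher miRNAs fall mostly below the line of equal values, with a median of 0.51 without these libraries, while the 39 lower ones stay near it with a median of -0.53.

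In 7 miRNAs (1.26%) all 6 FSK libraries lay above all 6 DHPG libraries, and in 8 (1.44%) all lay below. The 7 were miR-24-2-5p, miR-30b-5p, miR-34a-5p, miR-93-5p, miR-140-5p, miR-28a-5p and, without passing the test, miR-26a-5p. The 8 were miR-770-5p, miR-491-5p, miR-666-5p, miR-672-5p, miR-370-3p, miR-6944-3p and, without passing, miR-411-5p and miR-6977-3p. With FSK 1, 2, 3 and 6 alone against the 6 DHPG libraries the groups did not overlap in 11 miRNAs above (1.98%) and 14 below (2.52%).

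The higher miRNA of smallest p was miR-24-2-5p, from the arm of the Mir24-2 hairpin opposite miR-24-3p. Its level was 33.4 CPM at the lowest, 45.7 at the median and 81.0 at the highest with FSK, and 19.2, 24.7 and 31.0 with DHPG. The groups did not overlap, and FSK 4 and FSK 5 were the highest. The log2 fold change was 1.07 ± 0.25 (SE, edgeR adjusted p = 0.0364) and 0.67 without FSK 4 and FSK 5 (unadjusted p = 0.00656). It was 0.57 ± 0.17 within the shallow set and 1.08 ± 0.32 within the deep set. The deep set has 1 DHPG library, so each deep-set value takes its spread from the FSK and DMSO libraries, assumes that DHPG 6 varies like them, and has no replicate check of its own. The DMSO libraries ran from 24.3 to 51.6 CPM and so covered the range between the groups. The pair of miR-24 hairpins is shown because their 3p arms are identical and their 5p arms are not, so that 5p counts can point to a locus. The mature arms are in capitals, and Mir24-2 lies at chr8:84208815-84208921 on the plus strand and Mir24-1 at chr13:63301208-63301275 on the plus strand (GRCm38.p6).
Mir24-2: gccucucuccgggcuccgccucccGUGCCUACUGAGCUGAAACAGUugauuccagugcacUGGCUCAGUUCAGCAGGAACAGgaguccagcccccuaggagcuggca
Mir24-1: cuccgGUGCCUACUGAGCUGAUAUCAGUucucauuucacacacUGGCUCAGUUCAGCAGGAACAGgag
The other 5p arm, miR-24-1-5p, had a log2 fold change of 0.86 ± 0.41 (edgeR adjusted p = 0.144). In the 4 FSK libraries without FSK 4 and FSK 5 it lay at 4.48 to 5.36 CPM, above DHPG at 0.823 to 3.96, with a log2 fold change of 1.25 (unadjusted p = 0.00171). These 5p arms share most of their bases, so the estimated counting could split reads between them. The shared arm miR-24-3p lay at 348 to 587 CPM with FSK and 252 to 454 with DHPG and did not pass (0.32 ± 0.17, edgeR adjusted p = 0.186, and 0.15 without FSK 4 and FSK 5).

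Of the miR-23/27/24 clusters all 9 tested miRNAs had positive values. Of the 9, from 11 in the table, 2 rose and none fell, beside 7.91% that rose over all tested miRNAs. The median log2 fold change was 0.67 (0.29 without FSK 4 and FSK 5) against 0.04 over all tested miRNAs. The second that rose was miR-23a-3p, at 196 to 553 CPM with FSK and 164 to 218 with DHPG (0.75 ± 0.25, edgeR adjusted p = 0.0484). Its fold change was 0.19 without FSK 4 and FSK 5.

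Broadly expressed families held 1 or 2 members that rose, counts to be read beside the 7.91% that rose over all tested miRNAs. In the miR-17/92 group and its paralogs, known for promoting cell growth and proliferation, 2 of 15 tested miRNAs rose, miR-93-5p and miR-106b-5p, and none fell. Those come from a hairpin cluster inside Mcm7. miR-93-5p had a lowest, median and highest level of 984, 1025 and 1398 CPM with FSK and 524, 716 and 981 with DHPG. The groups met without overlapping, and the log2 fold change was 0.56 ± 0.17 (edgeR adjusted p = 0.0418), and 0.42 without FSK 4 and FSK 5. In the miR-29 family, known for repressing extracellular matrix genes, 1 of 6 rose: miR-29a-3p was at 1352, 1586 and 1927 CPM with FSK and 752, 1077 and 1454 with DHPG (0.56 ± 0.16, and 0.50 without FSK 4 and FSK 5). In the miR-30 family 1 of 11 rose. That was miR-30b-5p, at 691, 800 and 1072 CPM with FSK and 391, 586 and 653 with DHPG, with no overlap (0.60 ± 0.16, edgeR adjusted p = 0.0364, or 0.44 without FSK 4 and FSK 5). Over the miR-30 family the median was 0.32 with all libraries and 0.12 without these. None of 9 let-7 miRNAs passed, with a median of -0.02, and let-7a-5p was at 10610 to 12310 CPM with FSK and 10800 to 11680 with DHPG. The log2 fold change of let-7g-5p was 0.20, and 0.33 without FSK 4 and FSK 5, where it was among the 5 miRNAs of smallest p. Outside the families, miR-221-3p, a known repressor of a cell cycle inhibitor, lay at 1227, 1417 and 1703 CPM with FSK and 646, 873 and 1272 with DHPG. Of its FSK libraries 5 lay above every DHPG library, and its fold change of 0.65 ± 0.17 (edgeR adjusted p = 0.0364) was 0.55 without FSK 4 and FSK 5.

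The miR-15/16/497 seed family had 6 tested members, of which 3 rose and none fell, beside 7.91% that rose over all tested miRNAs. miR-497a-5p lay at 162, 209 and 431 CPM with FSK and 92.5, 125 and 196 with DHPG, with 3 FSK libraries above every DHPG library (0.99 ± 0.26, edgeR adjusted p = 0.0364). Its cluster partner miR-195a-5p went from a median of 155 CPM with DHPG to 247 with FSK (1.03 ± 0.29). Without FSK 4 and FSK 5 these values were 0.52 and 0.50. miR-140-5p, a cartilage-enriched miRNA, was low but clean, at 20.7, 22.7 and 25.7 CPM with FSK and 7.8, 15.3 and 20.1 with DHPG. Here the fold change was 0.68 ± 0.20 with all libraries and 0.61 without FSK 4 and FSK 5.

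The Mir450b to Mir322 cluster on the X chromosome was higher with FSK in several members. It holds 6 precursors between positions 53047997 and 53054349 of the X chromosome on the minus strand (GRCm38.p6). Of 7 tested miRNAs, 4 rose (miR-322-3p, miR-450a-5p, miR-450b-5p and miR-542-3p), beside 7.91% that rose over all tested miRNAs. All 7 were positive, and the median log2 fold change was 0.77. FSK 4 and FSK 5 were the highest pair in 1 of the 7, and without them the median was 0.82 over 6. Of the 4 that rose, miR-450b-5p went from 0.86 to 0.84, miR-450a-5p from 1.11 to 0.81 and miR-542-3p from 0.77 to 0.55. miR-322-3p lay at 84.4, 152 and 200 CPM with FSK and 44.2, 64.8 and 141 with DHPG, with 4 FSK libraries above every DHPG library. Its fold change was 0.96 ± 0.27 (edgeR adjusted p = 0.0364), 0.92 without FSK 4 and FSK 5 (unadjusted p = 0.0112), 1.08 ± 0.34 within the shallow set and 0.73 ± 0.44 within the deep set. The noncoding gene C430049B03Rik, which overlaps Mir322, also has mir-351 among its synonyms. miR-351-5p was not counted in the cluster, had a log2 fold change of 0.29 and did not pass. The difference between this cluster and other miRNAs was not tested.

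**Figure D2:**
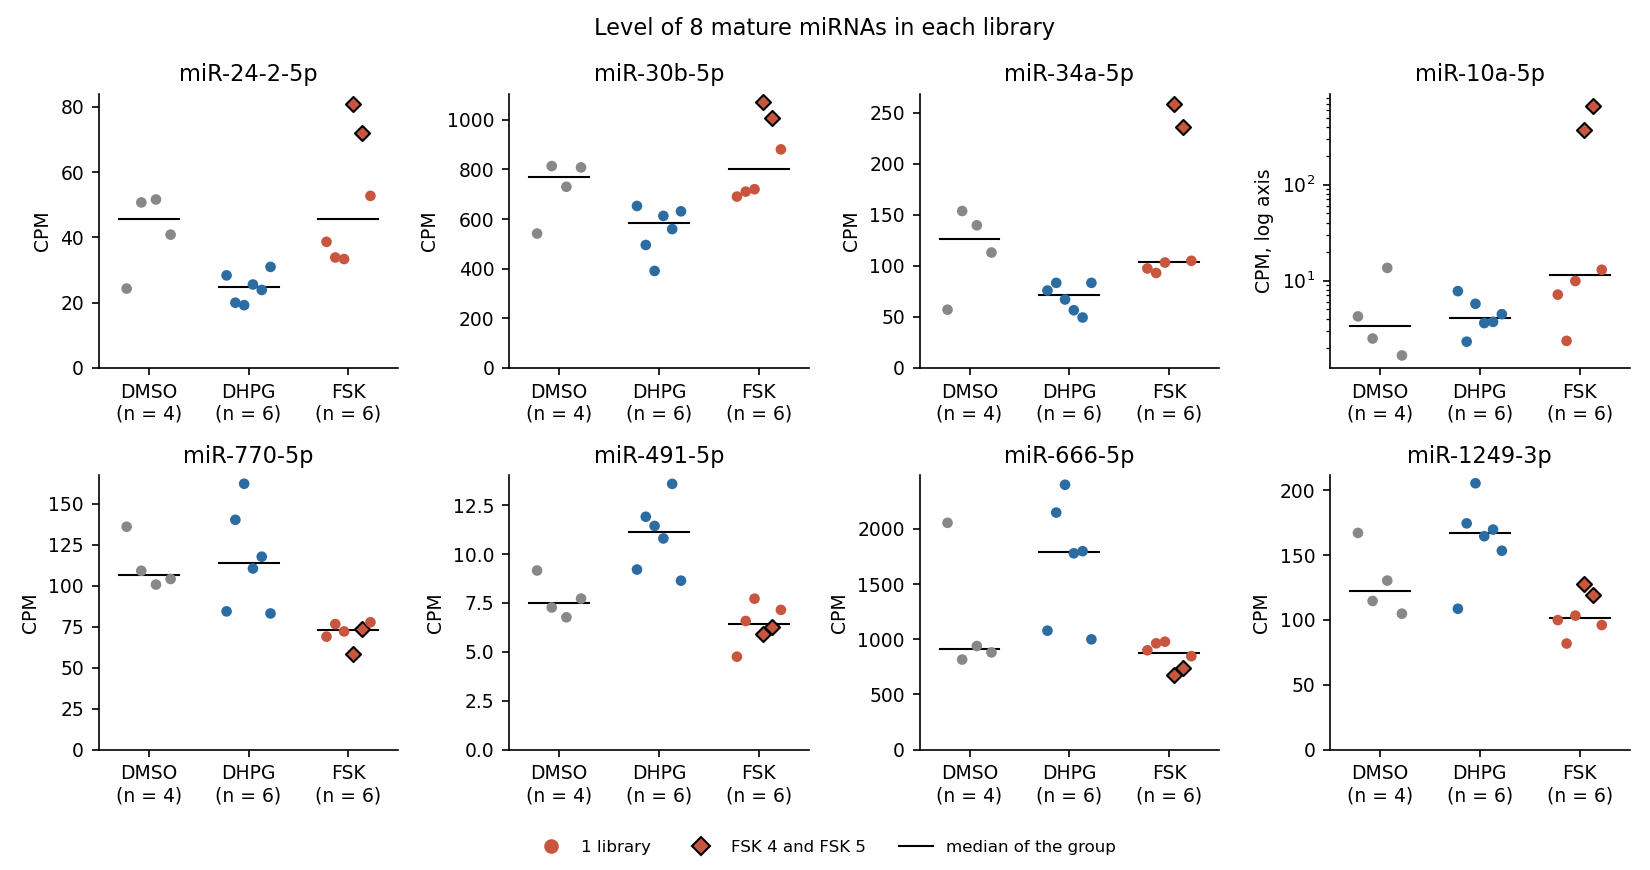
Level of 8 mature miRNAs in each library (y axis, CPM, on a log axis for miR-10a-5p), by agent (x axis), with a line at the group median and FSK 4 and FSK 5 as diamonds. miR-24-2-5p, miR-30b-5p and miR-34a-5p lay higher in all 6 FSK libraries than in any DHPG library, miR-770-5p, miR-491-5p and miR-666-5p lay lower, and miR-10a-5p was high in FSK 4 and FSK 5.

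The largest fold changes came with very high levels in FSK 4 and FSK 5, and most of these miRNAs are known from cells other than neurons. miR-10a-5p, which sits in a Hox gene cluster and is known from posterior tissues, measured 374 CPM in FSK 4 and 660 in FSK 5. The other FSK libraries lay at 2.35 to 12.9 CPM and the DHPG libraries at 2.31 to 7.76. Its log2 fold change of 5.25 ± 1.33 became 0.82 without FSK 4 and FSK 5 (unadjusted p = 0.154). miR-142a-5p, a miRNA of blood-derived cells, was at 103 CPM in FSK 4 and 206 in FSK 5, against 10.3 to 18.5 in the other FSK libraries and 3.64 to 15.5 with DHPG (3.09 ± 0.76, and 1.0 without them).

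Among choroid plexus and multiciliated cell miRNAs, 7 of 8 tested (of 11 in the table) rose and none fell. The share that rose over all tested miRNAs was 7.91%. The 8 miRNAs of the list had a median log2 fold change of 2.67. These are the miR-34b/c and miR-449 miRNAs, known for the formation of motile cilia, and miR-204-5p, which did not pass (0.43 ± 0.44) and turned to -0.50 without FSK 4 and FSK 5. The list's summed level was 3603 to 8776 CPM with DHPG, 5186 to 10547 in FSK 1, 2, 3 and 6, 37797 in FSK 4, 44827 in FSK 5 and 7064 to 23488 with DMSO. Libraries of the deep set were higher within the other agents too. DMSO 2 to 4 lay at 12740 to 23490 CPM against 7064 in DMSO 1, and DHPG 6 was the highest DHPG library. FSK 6, also of the deep set, was the highest of FSK 1, 2, 3 and 6. With a term for the library set the median log2 fold change was 1.47. Without FSK 4 and FSK 5 the median over 7 was 1.0, and miR-34c-5p had a fold change of 0.99 (unadjusted p = 0.0698) in place of 2.52 ± 0.70. miR-34c-5p was at 22710 CPM in FSK 4 and 28610 in FSK 5, and at 2990 to 5087 in the other FSK libraries and 807 to 3790 with DHPG. Their relative miR-34a-5p, a p53 target that neurons also express, had no overlap between the groups: 93.1, 104 and 258 CPM with FSK and 49.4, 71.5 and 83.4 with DHPG. Its fold change was 1.11 ± 0.29 (edgeR adjusted p = 0.0364), or 0.54 without FSK 4 and FSK 5 (unadjusted p = 0.0284), and DMSO spanned 57.1 to 154 CPM. In bulk samples, more cells of a type and more RNA per cell cannot be told apart.

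Of the microglia and blood list, 4 of 13 miRNAs were tested and 3 rose, beside 7.91% that rose over all tested miRNAs. The 3 were miR-142a-5p, miR-146a-5p and miR-155-5p, the last 2 known from innate immune signalling. The remaining tested member had the only negative value, -0.24, with FSK 4 and FSK 5 as its lowest pair of the 12 libraries. The median log2 fold change of the 4 was 1.88 with all libraries and 0.36 without FSK 4 and FSK 5. miR-146a-5p had 1348 CPM in FSK 4 and 2230 in FSK 5, 264 to 372 in the other FSK libraries and 195 to 380 with DHPG (1.67 ± 0.49, and 0.35 without FSK 4 and FSK 5). The defining markers miR-223-3p and miR-142a-3p were too low to test, with 34 and 14 counts in FSK 4, 98 and 40 in FSK 5 and 0 to 5 in the other 10 libraries. The list's summed level (3611 CPM in FSK 4, 4854 in FSK 5, 2731 to 4342 in the other FSK libraries and 3390 to 4647 with DHPG) did not follow these members. Of the mural and fibroblast list, 5 of 9 were tested and none passed, with a median of 1.47 (0.29 over 3 without FSK 4 and FSK 5) and a summed level of 4233 CPM in FSK 4, 1136 in FSK 5, 282 to 979 in the other FSK libraries and 255 to 1035 with DHPG. The endothelial pair miR-126a-3p and miR-126a-5p did not pass, with -0.22 and -0.25 (-0.06 and -0.01 without FSK 4 and FSK 5). The part of these cell types in the other fold changes was not tested.

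The oligodendrocyte list differed in its libraries. Of 5 tested miRNAs of 8, 2 rose, beside 7.91% that rose over all tested miRNAs. The 2 were miR-219a-5p and miR-219a-2-3p, known for promoting oligodendrocyte differentiation. miR-219a-2-3p had 38.1 to 60.0 CPM in FSK 1, 2 and 3, 91.8 in FSK 4, 129 in FSK 5 and 9.83 in FSK 6, against 2.08 to 6.69 in DHPG 2 to 6 and 41.0 in DHPG 1. Its fold change was 2.51 ± 0.78 (edgeR adjusted p = 0.0478), 1.73 without FSK 4 and FSK 5 (unadjusted p = 0.0503) and 1.88 ± 0.88 within the shallow set. miR-219a-5p was low, at 3.29, 9.07 and 13.6 CPM with FSK and 1.04, 2.93 and 4.94 with DHPG (1.48 ± 0.36, and 1.0 without FSK 4 and FSK 5, unadjusted p = 0.0172). The summed level of the list was 269 to 352 CPM in FSK 1, 2, 3 and 6, 368 in FSK 4, 478 in FSK 5, 190 to 292 with DHPG and 232 to 295 with DMSO. miR-338-3p, another miRNA of this lineage, lay at 160 to 266 CPM with FSK and 124 to 198 with DHPG and did not pass (0.30 ± 0.15, and 0.27 without FSK 4 and FSK 5).

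**Figure D3:**
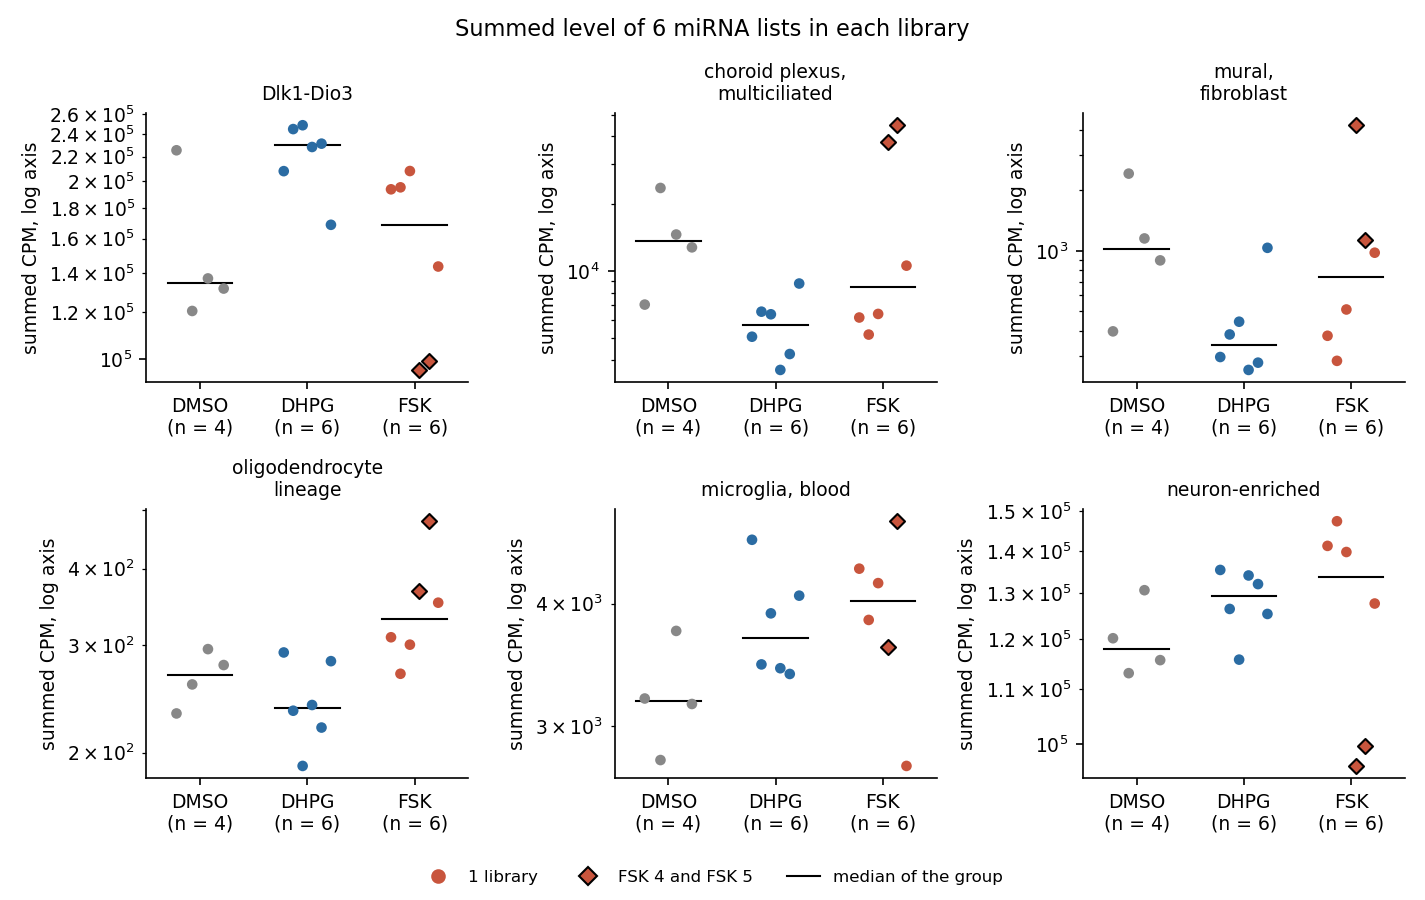
Summed CPM of 6 miRNA lists in each library (y axis, log axis) by agent (x axis), with a line at the group median and FSK 4 and FSK 5 as diamonds. For choroid plexus and multiciliated miRNAs FSK 4 (37797) and FSK 5 (44827) lay above every other library, and for the Dlk1-Dio3 miRNAs they lay lowest (95952 and 99389).

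The miRNAs that fell came in large part from the imprinted Dlk1-Dio3 region of chromosome 12. This region expresses the long noncoding RNAs Meg3, Rian and Mirg, together with many miRNA hairpins, from the maternal chromosome and is strongly expressed in neurons. Of 86 tested Dlk1-Dio3 miRNAs (of 112 in the table), 20 fell and none rose, while 70 were negative and 16 positive. Over all tested miRNAs 7.01% fell. The list's median log2 fold change was -0.28 against 0.04 over all tested miRNAs, and -0.17 without FSK 4 and FSK 5. The summed level was 168830 to 248710 CPM with DHPG, 143550 to 208130 in FSK 1, 2, 3 and 6, 95952 in FSK 4, 99389 in FSK 5 and 120680 to 225580 with DMSO. FSK 4 and FSK 5 were the lowest pair for 46 of the 86. The libraries of the deep set were lower within the other agents too, 120700 to 137000 CPM in DMSO 2 to 4 against 225600 in DMSO 1, and 168800 in DHPG 6 against 208000 to 248700 in DHPG 1 to 5. With a term for the library set the median log2 fold change was -0.24, and no miRNA of any list passed.

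The lower miRNA of smallest p was miR-770-5p, whose hairpin lies in Meg3. Its level was 58.7 CPM at the lowest, 72.9 at the median and 77.7 at the highest with FSK, and 83.1, 114 and 162 with DHPG. All FSK libraries lay below all DHPG libraries, and below DMSO (101 to 136 CPM). The log2 fold change was -0.70 ± 0.16 (edgeR adjusted p = 0.0364), -0.64 without FSK 4 and FSK 5 (unadjusted p = 0.00235), -0.76 ± 0.19 within the shallow set and -0.32 ± 0.27 within the deep set. The opposite arm miR-770-3p fell as well, with -0.56 ± 0.15, and -0.55 without FSK 4 and FSK 5. The hairpin at chr12:109563692-109563785 on the plus strand (GRCm38.p6) is shown, with its arms in capitals, because both arms passed.
Mir770: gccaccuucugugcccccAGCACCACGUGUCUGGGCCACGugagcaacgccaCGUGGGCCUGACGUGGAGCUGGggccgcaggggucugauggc

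Farther along the same strand, miR-666-5p fell by more than any other of the lower miRNAs that were named by smallest p. It lay at 680, 874 and 978 CPM with FSK and 999, 1788 and 2400 with DHPG, with no overlap. DMSO ran from 816 to 2055 CPM and covered most of both ranges. The fold change was -1.0 ± 0.24 (edgeR adjusted p = 0.0364), -0.86 without FSK 4 and FSK 5 (unadjusted p = 0.00824), -0.96 ± 0.21 within the shallow set and -0.47 ± 0.24 within the deep set. Its other arm miR-666-3p also fell (-0.47 ± 0.12, and -0.36 without FSK 4 and FSK 5). miR-758-3p lay at 205, 241 and 271 CPM with FSK and 267, 395 and 651 with DHPG, overlapping by 1 library (-0.87 ± 0.21, and -0.77 without FSK 4 and FSK 5). miR-323-3p was at 540, 655 and 813 CPM against 732, 967 and 1146 (-0.53 ± 0.14), and miR-370-3p, from a hairpin in Rian, at 198, 305 and 339 against 361, 416 and 633 with no overlap (-0.62 ± 0.16). Both were smaller, -0.41 and -0.46, without FSK 4 and FSK 5.

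miR-434-3p was the most abundant of the lower miRNAs named by smallest p. It lay at 18568, 20174 and 28198 CPM with FSK and 22580, 30447 and 37842 with DHPG, with 4 FSK libraries below every DHPG library. The fold change was -0.50 ± 0.12 and -0.40 without FSK 4 and FSK 5 (unadjusted p = 0.00577). Its other arm fell by a like amount (miR-434-5p, -0.50 ± 0.14, and -0.31 without FSK 4 and FSK 5). Mir434 and Mir433 lie on the strand opposite Rtl1, whose transcript their miRNAs are known to cut. Both arms of Mir433 fell as well, miR-433-5p with -0.75 ± 0.21 and miR-433-3p with -0.49 ± 0.14 (-0.55 and -0.36 without FSK 4 and FSK 5). miR-127-3p, from the same group of hairpins and the second most abundant miRNA of the assay, did not pass: it lay at 34060 to 127600 CPM with FSK and 75200 to 141100 with DHPG (-0.63 ± 0.38, edgeR adjusted p = 0.267, and -0.25 without FSK 4 and FSK 5). Its levels were low in FSK 4, 5 and 6 (34060, 35590 and 48630) and in DHPG 6 (75200), the libraries of the deep set.

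Not all lower miRNAs lay in that region, and 19 of the 39 were outside it. miR-491-5p, from a hairpin within Focad on chromosome 4, lay at 4.75, 6.43 and 7.72 CPM with FSK and 8.64, 11.1 and 13.6 with DHPG, with no overlap. Its fold change of -0.74 ± 0.17 (edgeR adjusted p = 0.0364) became -0.67 without FSK 4 and FSK 5 (unadjusted p = 0.00335), and DMSO overlapped both groups at 6.77 to 9.16 CPM. miR-672-5p, in Nexmif on the X chromosome, lay at 75.1, 99.8 and 110 CPM against 119, 154 and 200 (-0.67 ± 0.17, and -0.53 without FSK 4 and FSK 5). miR-1249-3p had 81.8, 102 and 128 CPM with FSK and 109, 167 and 205 with DHPG, with 4 FSK libraries below every DHPG library. Its fold change was -0.63 ± 0.16 with all libraries and -0.75 without FSK 4 and FSK 5, where it had the smallest p of all 538 miRNAs (unadjusted p = 0.000365, edgeR adjusted p = 0.196). FSK 4 and FSK 5 held its highest FSK levels, 128 and 119 CPM, which lay nearer to DHPG than the other FSK libraries did. miR-702-3p lay at 40.7, 55.2 and 67.7 CPM against 65.9, 79.1 and 115 (-0.61 ± 0.16, and -0.53 without FSK 4 and FSK 5).

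Of 19 tested activity-regulated miRNAs 2 fell and none rose, beside 7.01% that fell over all tested miRNAs. Of the 19, 15 were negative and 4 positive, with a median log2 fold change of -0.18 (-0.05 without FSK 4 and FSK 5) against 0.04 over all. miR-485-5p, known for limiting presynaptic and dendritic spine proteins, lay at 175, 259 and 300 CPM with FSK and 258, 387 and 533 with DHPG (-0.59 ± 0.18, edgeR adjusted p = 0.0432, and -0.43 without FSK 4 and FSK 5). It is also a Dlk1-Dio3 miRNA. miR-138-5p, a regulator of spine size through a depalmitoylating enzyme, lay at 2321, 2641 and 3346 CPM with FSK and 2758, 3406 and 3630 with DHPG (-0.31 ± 0.10, edgeR adjusted p = 0.0472, and -0.22 without FSK 4 and FSK 5). DMSO lay at 3398 to 3783 CPM for miR-138-5p. miR-134-5p, a dendritic repressor of spine growth, did not pass, at 200 to 242 CPM with FSK and 227 to 300 with DHPG (-0.27 ± 0.10, edgeR adjusted p = 0.0835, or -0.21 without FSK 4 and FSK 5).

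The CREB-regulated pair did not differ detectably as mature miRNAs, while its primary transcript did. miR-132-3p lay at 1218, 1796 and 2132 CPM with FSK and 1827, 1965 and 2285 with DHPG, with overlap, and its log2 fold change was -0.17 ± 0.13 (95% interval -0.44 to 0.10, edgeR adjusted p = 0.336). miR-212-3p lay at 235, 362 and 427 CPM against 328, 353 and 389, with a fold change of -0.01 ± 0.13 (95% interval -0.27 to 0.26, edgeR adjusted p = 0.976). Without FSK 4 and FSK 5 these were -0.04 and 0.13. In the total RNA libraries 1700016P03Rik, known as the host transcript of this pair, was at 12.6 ± 2.07 CPM (SD, n = 6) with FSK and 3.02 ± 1.69 with DHPG. Its ranges, 10.6 to 16.3 and 1.32 to 5.82 CPM, did not overlap, and its log2 fold change was 2.05 ± 0.35 (edgeR adjusted p = 0.0164). The fold change was 2.08 without FSK 4 and FSK 5, with an edgeR adjusted p of 0.0898. In that assay 5283 of 17173 features (30.8%) passed.

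Besides miR-127-3p, the 5 most abundant miRNAs were miR-181a-5p, miR-22-3p, miR-9-5p and miR-128-3p, and none of the 5 passed. miR-181a-5p lay at 86930 to 128400 CPM with FSK and 103700 to 134600 with DHPG (-0.15 ± 0.10, 95% interval -0.36 to 0.05, and -0.04 without FSK 4 and FSK 5). miR-22-3p had 0.14 ± 0.09 (0.03 without these libraries), miR-9-5p 0.12 ± 0.08 (0.18) and miR-128-3p -0.19 ± 0.19 (0.10, so that its sign turned). The neuronal miR-124-3p, less abundant, did not pass either, at 1764 to 3398 CPM with FSK and 2373 to 3082 with DHPG (-0.19 ± 0.14, and -0.01 without these libraries). Of 12 neuron-enriched miRNAs 1 fell, miR-138-5p, and none rose, beside 7.01% that fell and 7.91% that rose over all tested miRNAs. The median of the 12 was 0.03 (0.12 without FSK 4 and FSK 5). Their summed level was 115790 to 135370 CPM with DHPG, 127660 to 147410 in FSK 1, 2, 3 and 6, 96208 in FSK 4 and 99581 in FSK 5.

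**Figure D4:**
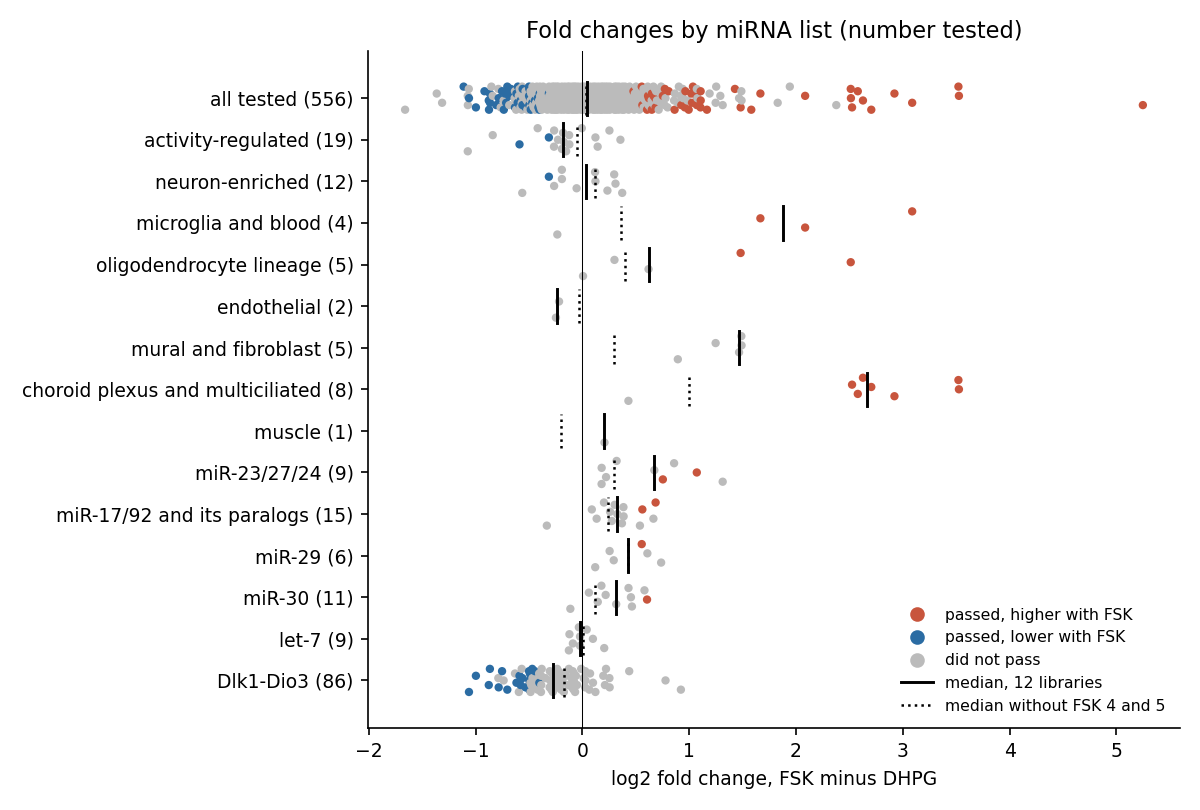
Log2 fold change (FSK minus DHPG, x axis) of each tested miRNA by list (y axis, number tested in brackets), 1 point per miRNA, coloured by the edgeR call, with the median of all 12 libraries as a solid bar and that without FSK 4 and FSK 5 as a dotted bar. The choroid plexus and multiciliated list has its median at 2.67 with all libraries and 1.0 without FSK 4 and FSK 5, while the Dlk1-Dio3 list has -0.28 and -0.17.

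Part of the higher group shared seeds. Of the 556 tested miRNAs 487 had a sequence in the RefSeq table, with 411 seeds, of which 48 were shared by 2 or more miRNAs. In 5 seeds at least 2 miRNAs rose, in 1 at least 2 fell, and none held both a risen and a fallen miRNA. All 4 members with the miR-34/449 seed GGCAGUG rose, both with the miR-10 seed ACCCUGU and both with the seed AUCACUA of miR-34b-3p and miR-34c-3p. Of the miR-15/16/497 seed AGCAGCA 3 of 6 rose and of the miR-17 seed AAAGUGC 2 of 4. These counts stand beside 7.91% that rose over all tested miRNAs. Many of these miRNAs are also neighbours in a hairpin cluster, so shared seed and shared locus overlap. Such pairs are miR-449a-5p and miR-449c-5p, miR-34b-3p and miR-34c-3p, miR-195a-5p and miR-497a-5p, and miR-93-5p and miR-106b-5p. Leaving out FSK 4 and FSK 5 took the median log2 fold change from 2.75 to 1.17 for GGCAGUG and from 3.415 to 0.61 for ACCCUGU. It went from 2.67 to 0.93 for AUCACUA, from 0.71 to 0.47 for AGCAGCA and from 0.55 to 0.41 for AAAGUGC. The fallen pair with the seed GAGGUUG was miR-672-5p and miR-377-5p, from the X chromosome and chromosome 12. The median GC content of the mature sequence was 45.5% in 39 higher miRNAs, 54.5% in 37 lower ones and 50.0% in the 411 that did not pass. Its part in the result was not tested.

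Arms of 1 hairpin often had the same sign, with exceptions. In 122 hairpins both arms were tested, 87 had fold changes of the same sign, and Pearson's r across hairpins was 0.799, given as a description since arms share libraries and clusters. Of 32 hairpins with a called arm, the other arm had the same sign in 30, and both arms were called in 9, always in the same direction. An exception was Mir298, whose miR-298-5p fell (-0.40) while miR-298-3p had a value of 0.44.

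Host transcripts were read from the total RNA libraries. For 33 called miRNAs a gene on the same strand overlapped the hairpin and was tested, 21 genes in all. The host had the same sign as the miRNA in 21 of the 33. Of the 21 genes 6 passed, against 30.8% of all features, and these 6 had the sign of their 11 miRNAs. Hoatz, a ciliary gene over miR-34b and miR-34c, was at 3.18 ± 3.07 CPM with FSK and 0.284 ± 0.341 with DHPG (3.41 ± 0.83, edgeR adjusted p = 0.0168, and 2.03 without FSK 4 and FSK 5). Cdc20b, over the miR-449 hairpins and known from multiciliated cells, had 3.05 ± 0.83 and was too low to test without them. Ift74, an intraflagellar transport gene over miR-872, had 1.23 ± 0.31, and 0.67 without them. Those that fell were Evl over miR-342 (-0.42 ± 0.13, and -0.26 without FSK 4 and FSK 5), Dbn1, the actin-binding protein drebrin, over miR-6944 (-0.41 ± 0.11, and -0.31) and 5031439G07Rik over miR-1249 (-0.27 ± 0.09, and -0.21). Without FSK 4 and FSK 5 none of the 5 that could be tested passed, with edgeR adjusted p of 0.104 to 0.150. The long RNAs of the Dlk1-Dio3 region did not pass: Meg3 had 0.24 ± 0.22 (edgeR adjusted p = 0.401), Rian -0.12 ± 0.15 (0.567) and Mirg 0.23 ± 0.19 (0.350), Meg3 and Mirg with a sign opposite to that of the called miRNAs in them. The 3 values were 0.33, 0.07 and 0.47 without FSK 4 and FSK 5, so that the sign of Rian turned.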

How the data were processed

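The 16 miRNA libraries (4 DMSO, 6 DHPG, 6 FSK) were analysed, with the 16 total RNA libraries for host transcripts. The submitters' processing notes name Salmon, DESeq and GRCm38, with no versions. The small RNA library kit is not given in the sources used here. The deposited values are estimated counts per mature miRNA (3.68% not whole numbers) and were rounded before testing. Control columns were matched to DMSO samples by number. No 2 libraries shared more than 4.5% of their counts.

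edgeR 4.0.16 (R 4.3.3) fitted the 3 groups together by quasi-likelihood with robust estimation, TMM factors and filterByExpr at a minimum count of 10, and p-values were adjusted by Benjamini-Hochberg over all 556 miRNAs with a limit of 0.05. The prior count for log2 CPM was 2. Intervals are at 95%. The deposited authors' comparison tables were not used. DESeq2 1.42.0 and limma 3.58.1 were alternatives, and the fit was tested on simulated data. Sequences, neighbours within 10 kb and host genes are from RefSeq GRCm38.p6.

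The naming rule took up to 10 passing miRNAs of smallest p in each direction and the 5 of smallest p without FSK 4 and FSK 5. It also took the 5 most abundant, 2 of smallest p per list and a fixed group. Not all of these are described above. Of those passing, miR-92b-5p (1.43, and 0.76 without FSK 4 and FSK 5) and miR-574-3p (1.07, and 0.46) are left out. So are some list members, such as miR-29b-3p, miR-30c-5p, miR-129-2-3p and the muscle miRNA miR-133a-3p. Others, such as the miR-322 cluster, miR-195a-5p, miR-140-5p, miR-370-3p, miR-433 and miR-34c-5p, were named after their values were seen. Members and lists were chosen with earlier results of these data known.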

Additional observations from a re-analysis of the deposited data

Results flagged for a closer look

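Among 81 named miRNAs with 6 libraries in each group (162 groups), 7 groups held 1 library whose gap to its nearest neighbour, as a share of the group's range, was above Dixon's 95% critical value for 6 values. Chance flags about 1 group in 20.

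DHPG 6 was low for miR-127-3p (0.76 of the range, 75200 CPM against 121300 to 141100 in the others) and high for miR-199a-3p (0.638, 133 CPM against 23.0 to 43.7). DHPG 1 was high for miR-219a-2-3p (0.634, 41.0 CPM) and miR-450b-5p (0.691, 9.21 CPM). DHPG 3 was low for miR-26a-5p (0.667, 33940 CPM). FSK 4 was low for miR-212-3p (0.677, 236 CPM), and FSK 2 was low for miR-6977-3p (0.822, 4.23 CPM).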

How the results depend on the processing

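The number of miRNAs passing was 83 with all libraries. It was 77 with DESeq2 size factors, 63 with library totals, 111 with the DESeq2 Wald test, 99 with limma-voom, 85 with a minimum count of 50 and 63 with only the FSK and DHPG libraries in the fit. It was 35 with no filter and 51 with a minimum count of 5. It was 0 without FSK 4 and FSK 5, 0 without them and with a term for the library set, 0 with that term on all libraries (143 at an unadjusted p under 0.05), 0 in the shallow set (133) and 0 in the deep set (60), which was added after the data were seen. Leaving out 1 library at a time gave 0 to 128: 0 without DHPG 2, 3, 4 or 5 or FSK 4 or 5, 54 without DMSO 3 or DMSO 4, and 128 without DHPG 6. The cause of these differences was not tested. With all libraries 49 miRNAs shared the smallest edgeR adjusted p of 0.0364. Every called miRNA kept its sign in each setting in which it was tested. The settings reuse libraries that gave the calls, so this is not an independent check.

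Same-numbered FSK and DHPG libraries deviated from their group means with correlations of -0.272 to 0.194. These values do not settle if the numbers pair the samples, since FSK 4 and FSK 5 stand apart. FSK 4 and FSK 5 also lie in the deep set, while DHPG 4 and DHPG 5 lie in the shallow set. With a replicate block 0 miRNAs passed, and 165 had an unadjusted p under 0.05.

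Depth limits rare miRNAs most: 1407 of 1963 were too low to test.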
